A study of Mus musculus with 10 samples.

Results

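Myelin and Schwann cell genes were followed in the trigeminal ganglion of mice, where neurons sensing the face lie among glial cells. The 40 genes were chosen by name, and all 40 were found by gene identifier in both deposited tables, among 26411 genes in the table of the surgery experiment and 55886 in that of the injection experiment. The surgery experiment had 3 sham libraries and 3 libraries from mice with the surgery labelled pIONT, all from ganglia taken at day 10. In the injection experiment, phosphate-buffered saline (PBS, 2 libraries) or the peptide urocortin 1 (UCN1, 2 libraries) was put into the ganglion 6 hours before it was taken. Estimated depth was 24.2 to 29.7 M reads per library in the surgery and 15.7 to 17.1 M reads in the injection experiment. The labels give no strain, sex, age, UCN1 dose or number of mice per library, so p-values cover only the spread seen among these libraries, part or all of which may be technical. Values are FPKM, reads scaled to gene length and library depth, and the tables were made with different definitions of gene length, so levels are not compared between experiments.

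Myelinating Schwann cells wrap single large axons in a compact membrane rich in cholesterol and galactolipids, while non-myelinating Schwann cells hold bundles of thin axons. Axons instruct both through neuregulin 1, which Schwann cells sense with the receptor ErbB2/ErbB3, and the transcription factors Sox10, Pou3f1 (Oct6) and Egr2 (Krox20) drive myelin genes in turn. After nerve injury, Schwann cells along the cut axons are known to lower myelin genes and to raise genes of an immature or repair state. The ganglion also holds satellite glia around the neuron bodies, which share Sox10, Cdh19 and S100b with Schwann cells. In bulk tissue, fewer cells of a type and less RNA per cell cannot be told apart.

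Of the 40 genes, 13 fell and 2 rose 10 days after pIONT, at an adjusted p under 0.05 in limma over all 14672 genes tested. The share that fell was 32.5%, against 12.3% of all genes tested, and the share that rose was 5.0% against 10.5%. In either direction 15 of 40 passed, against 22.8% of all genes. The list was drawn up with results of these data known, so these shares are a description and not independent evidence. The genes that fell were the myelin protein genes Mbp, Pmp22, Prx, Drp2 and Ncmap, the lipid enzymes Fa2h and Ugt8a, the axon-glia contact genes Nfasc and Cntnap1, the axonal signal Nrg1, the calcium-binding protein S100b and the tetraspanins Tspan2 and Cd9. They stood at 72.9% to 90.4% of the sham mean, so every one of these decreases was smaller than 2-fold. Ncam1 and Cdh19 rose, to 126% and 112% of the sham mean. At 6 hours after UCN1, limma called 0 of the 37 genes tested (7 at an unadjusted p under 0.05).

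**Figure D1:**
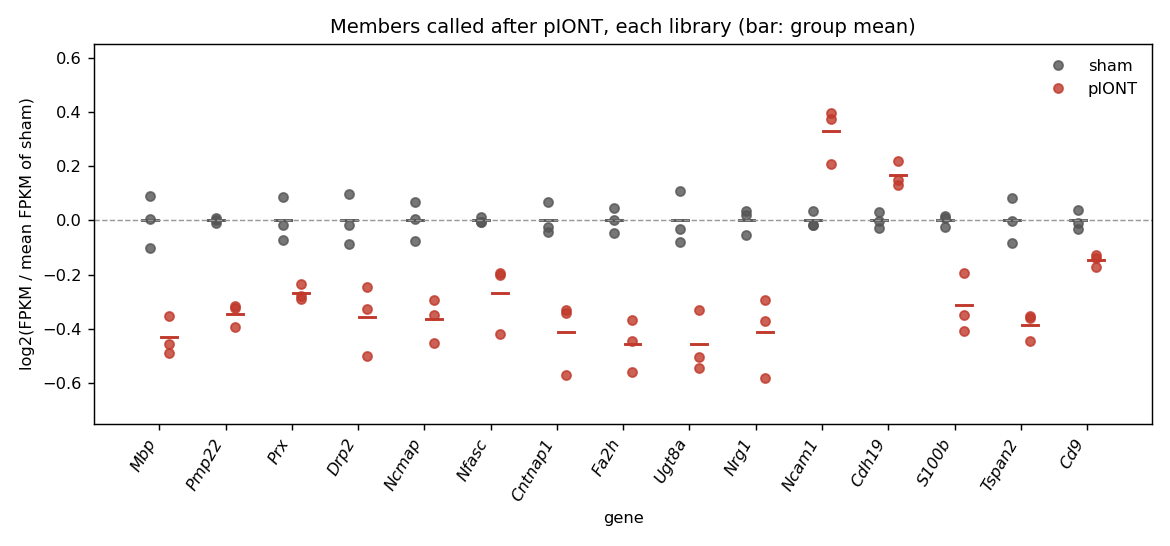
Members called after pIONT, as the log2 ratio of each library's FPKM to the mean of the sham libraries (vertical axis), 1 column per gene; grey points are the 3 sham and red points the 3 pIONT libraries, and bars are group means. In each of the 13 genes that fell every pIONT point lies below every sham point, and in Ncam1 and Cdh19 every pIONT point lies above.

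Of the members listed as peripheral myelin only, and not as shared with oligodendrocytes, Pmp22, Ncmap, Prx and Drp2 fell. RefSeq sequence upstream of the first 3 is shown. The 250 bases before the 5'-most RefSeq start are shown 5' to 3' on the gene's strand, because these genes all fell and because Sox10 and Egr2 are known regulators of peripheral myelin genes. In build GRCm38.p6 they lie at chr11:63128732-63128981 on the plus strand for Pmp22, at chr4:135398228-135398477 on the minus strand for Ncmap and at chr7:27499074-27499323 on the plus strand for Prx. Capitals mark the SOX core ACAAT or ACAAAG or the EGR core GTGGGNG, searched on both strands.
Pmp22: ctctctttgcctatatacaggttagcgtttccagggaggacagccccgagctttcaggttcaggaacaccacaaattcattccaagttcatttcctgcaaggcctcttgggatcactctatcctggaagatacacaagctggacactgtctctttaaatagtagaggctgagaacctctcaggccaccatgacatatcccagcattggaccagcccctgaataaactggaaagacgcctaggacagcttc
Ncmap: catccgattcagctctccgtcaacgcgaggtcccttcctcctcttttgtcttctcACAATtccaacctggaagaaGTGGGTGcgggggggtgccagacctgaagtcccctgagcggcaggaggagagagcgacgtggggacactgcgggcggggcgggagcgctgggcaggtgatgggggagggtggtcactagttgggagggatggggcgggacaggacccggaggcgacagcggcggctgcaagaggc
Prx: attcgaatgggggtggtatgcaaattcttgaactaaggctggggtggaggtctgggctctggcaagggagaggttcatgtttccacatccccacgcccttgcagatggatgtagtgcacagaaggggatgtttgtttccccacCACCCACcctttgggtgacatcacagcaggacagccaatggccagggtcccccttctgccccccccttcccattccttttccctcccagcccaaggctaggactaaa
Ncmap held 1 ACAAT and 1 GTGGGNG, Prx held 1 GTGGGNG on the opposite strand, and Pmp22 held none of these letters in this window. RefSeq lists 4 starts for Pmp22 and 2 for Ncmap, and the windows of the others were not printed. The Prx window ends directly before the start in RefSeq, but the injection table gives Prx an earlier start, at 27497388, so the window lies inside that gene model. Among 27025 genes with such a window, 28.2% held ACAAT, 16.5% ACAAAG and 27.8% GTGGGNG. The stricter GTGGGCG, which lies within GTGGGNG, was held by 7.04%. Of the 27 members with a window, 5 held ACAAT, 4 ACAAAG, 13 GTGGGNG and 4 GTGGGCG. Of the 8 members that fell and had a window, 2 held ACAAT, 0 ACAAAG, 5 GTGGGNG and 1 GTGGGCG. A match is a description of letters and not a bound site.

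The counts per role that follow stand beside 12.3% of all genes tested that fell and 10.5% that rose. Compact myelin and its edges were represented by 5 genes, of which Mbp and Pmp22 fell. Mbp encodes the basic protein that joins the cytoplasmic faces of myelin. It was at 505, 442 and 477 FPKM in sham 1 to 3 and at 345, 338 and 371 FPKM in pIONT 1 to 3. The highest pIONT library lay below the lowest sham library, and the log2 fold change was -0.43 (SE 0.07, limma adjusted p = 0.00581). Pmp22, a membrane protein of compact myelin whose gene dosage underlies inherited neuropathy, was at 1279, 1286 and 1268 FPKM in sham and 974, 1026 and 1022 FPKM in pIONT, without overlap. Its log2 fold change was -0.34 (SE 0.05, limma adjusted p = 0.00526), a call lost only when no filter on low genes was used (limma adjusted p = 0.1). Mal, a proteolipid of myelin membrane traffic, was at 130 to 151 FPKM in sham and 122 to 127 in pIONT without overlap, and did not pass (log2 fold change -0.18, limma adjusted p = 0.0744). Cnp, an enzyme of non-compacted myelin, was at 130 ± 9.59 FPKM in sham and 135 ± 10.6 in pIONT (SD, n = 3), with overlapping libraries. Pmp2, a fatty acid binding protein of myelin, was low and scattered, at 1.06 to 1.36 FPKM in sham and 0.528, 2.17 and 1.22 in pIONT.

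Of 7 genes of non-compact myelin, the cytoskeletal link and glial junctions, Prx, Drp2 and Ncmap fell. Prx (periaxin) and Drp2 form a complex with dystroglycan that ties the Schwann cell to its basal lamina. Prx was at 153, 137 and 142 FPKM in sham and 122, 119 and 118 in pIONT, and Drp2 was at 56.0, 51.8 and 49.3 FPKM in sham and 41.7, 37.0 and 44.2 in pIONT. Neither gene had overlapping groups, and the log2 fold changes were -0.27 (SE 0.05) and -0.35 (SE 0.08) with limma adjusted p = 0.0119 and 0.0185. Ncmap, a small membrane protein of peripheral myelin, went from 98.1, 102 and 92.7 FPKM to 79.6, 71.4 and 76.7 FPKM (log2 fold change -0.36, SE 0.06, limma adjusted p = 0.00659). Mag, an adhesion protein of the membrane facing the axon, just missed the threshold, at 15.8 to 17.2 FPKM in sham and 12.9 to 15.3 in pIONT without overlap (log2 fold change -0.23, limma adjusted p = 0.0566). The gap junction gene Gjb1 (connexin 32) was at 14.29 to 16.23 FPKM in sham and 12.13 to 14.28 in pIONT, so that the groups all but touched (log2 fold change -0.19, limma adjusted p = 0.133). Gjc3 (connexin 29) and the tight junction gene Cldn19 had overlapping groups, with log2 fold changes of 0.22 and -0.11.

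Among the myelin lipid genes, Ugt8a and Fa2h had the lowest log2 fold changes of all 40 genes, at -0.45 each. Ugt8a makes galactosylceramide and Fa2h hydroxylates its fatty acids. In GRCm38, by the coordinates of the injection table, Ugt8a spans chr3:125865271-125938619 and Fa2h chr8:111345135-111393824. Ugt8a was at 48.2, 42.3 and 43.8 FPKM in sham and 31.5, 30.7 and 35.6 in pIONT (SE 0.07, limma adjusted p = 0.00687). Fa2h was at 32.4, 31.3 and 33.4 FPKM in sham and 25.1, 23.8 and 22.0 in pIONT (SE 0.06, limma adjusted p = 0.00326). In both genes each pIONT library was well below each sham library. Cers2, which makes the very long chain ceramides of myelin, was at 47.1 to 51.7 FPKM in sham and 43.9 to 45.7 in pIONT and did not pass (log2 fold change -0.16, limma adjusted p = 0.0546). Gal3st1, which sulfates galactosylceramide to sulfatide, and Aspa, which releases acetate from N-acetylaspartate, had overlapping groups, with log2 fold changes of -0.13 and 0.17.

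At the node of Ranvier and its flanks, Nfasc and Cntnap1 fell while Gldn did not pass. Nfasc (neurofascin) is made both by neurons and by glia, and Cntnap1 (Caspr) is the axonal protein that anchors the paranodal loops. Cntnap1 was at 48.7, 49.4 and 52.6 FPKM in sham and 39.95, 33.8 and 39.6 in pIONT (log2 fold change -0.41, SE 0.07, limma adjusted p = 0.00894). Nfasc was at 27.7, 28.1 and 27.8 FPKM in sham and 24.4, 20.9 and 24.2 in pIONT (log2 fold change -0.27, SE 0.06, limma adjusted p = 0.0263). In both, pIONT 2 was the lowest library. Gldn (gliomedin), the Schwann cell protein that clusters channels at the node, overlapped between groups at 10.9 to 14.6 FPKM in sham and 12.3 to 16.6 in pIONT (log2 fold change 0.16, limma adjusted p = 0.446).

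Of 6 genes of signalling between axon and Schwann cell, only Nrg1 was called. Nrg1, the neuregulin that axons present to Schwann cells, fell from 8.67, 8.76 and 8.23 FPKM to 6.62, 5.71 and 6.97 FPKM (log2 fold change -0.39, SE 0.08, limma adjusted p = 0.0125). Its receptors in Schwann cells had overlapping groups. Erbb2 was at 4.36 to 4.51 FPKM in sham and 3.95 to 5.74 in pIONT, and Erbb3 was at 15.4 to 17.7 and 15.5 to 19.7 FPKM. The 95% interval of the log2 fold change ran from -0.19 to 0.36 for Erbb2 and from -0.19 to 0.26 for Erbb3. Dhh (desert hedgehog), which Schwann cells send to the perineurium, was at 15.2 ± 0.860 FPKM in sham and 15.03 ± 1.29 in pIONT (SD, n = 3). Shh (sonic hedgehog), a related ligand, was at 6.02 to 7.37 FPKM in sham and 6.99 to 7.83 in pIONT (log2 fold change 0.17, limma adjusted p = 0.187). Adgrg6 (Gpr126), a receptor needed for the onset of myelination, had a log2 fold change of 0.08 with a 95% interval of -0.07 to 0.23.

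None of the 6 transcription factor genes passed (limma adjusted p = 0.205 to 0.992, with 0 of 6 at an unadjusted p under 0.05 and 0 of 6 called with voom). Of all genes tested 22.8% passed and 37.0% had an unadjusted p under 0.05. With only 6 genes, these counts do not show that transcription factors differed from other genes. Sox10, needed at every stage of the Schwann lineage, was at 51.4, 52.4 and 60.2 FPKM in sham and 53.8, 54.3 and 45.04 in pIONT. Egr2, the master regulator of peripheral myelination, was at 6.41, 6.25 and 7.41 FPKM in sham and 6.60, 7.46 and 6.88 in pIONT. The groups overlapped in both genes, with 95% intervals of -0.31 to 0.12 for Sox10 and -0.12 to 0.24 for Egr2 on the log2 scale. Pou3f1, of the promyelinating stage, was at 3.20 to 3.98 FPKM in sham and 5.24, 6.53 and 3.48 in pIONT. Sox2, an inhibitor of myelination in immature and injured Schwann cells, was at 9.78 to 9.94 FPKM in sham and 12.3, 13.3 and 9.08 in pIONT. Without pIONT 3, the library that lies inside or below the sham range, both passed, with limma adjusted p = 0.0214 for Pou3f1 and 0.0091 for Sox2. Foxd3, of neural crest and early glia, was at 8.61 to 11.5 FPKM in sham and 9.66 to 12.1 in pIONT. Olig1, better known from oligodendrocytes, rested on 11 to 57 reads per library at 0.172 to 0.962 FPKM and was highest in sham 1 and pIONT 2.

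Among 6 genes of non-myelinating, immature and general glial identity, 2 rose and 1 fell. Ncam1, an adhesion molecule of non-myelinating Schwann cells and of neurons, was at 12.3, 12.3 and 12.7 FPKM in sham and 16.4, 16.1 and 14.4 in pIONT (log2 fold change 0.32, SE 0.06, limma adjusted p = 0.0106). Cdh19, a cadherin of Schwann cell precursors and satellite glia, was at 11.56, 12.03 and 11.75 FPKM in sham and 12.9, 13.1 and 13.7 in pIONT (log2 fold change 0.16, SE 0.04, limma adjusted p = 0.0375). The Cdh19 call was lost in 9 of 16 alternatives, including each one that left out a single library. L1cam, which neurons and non-myelinating Schwann cells both make, was higher in all 3 pIONT libraries and did not pass (log2 fold change 0.15, limma adjusted p = 0.104). S100b, the calcium-binding protein used to mark Schwann cells and satellite glia, fell from 542, 555 and 557 FPKM to 433, 415 and 482 FPKM (log2 fold change -0.32, SE 0.06, limma adjusted p = 0.0145). Scn7a, a sodium channel gene of non-myelinating Schwann cells, and Art3, an ectoenzyme gene, had the log2 fold changes -0.02 and 0.04, with 95% intervals of -0.13 to 0.09 and -0.09 to 0.16.

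The tetraspanins Tspan2 and Cd9, membrane organisers found in myelin, both fell. Tspan2 was at 11.8, 12.4 and 11.1 FPKM in sham and 9.16, 8.64 and 9.21 in pIONT (log2 fold change -0.37, SE 0.06, limma adjusted p = 0.00566). Cd9 was at 348, 337 and 332 FPKM in sham and 310, 301 and 308 in pIONT (log2 fold change -0.15, SE 0.04, limma adjusted p = 0.0477). The Cd9 call was lost in 10 of 16 alternatives, including each one that left out a single library. In Tspan2 it was kept in all 16.

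**Figure D2:**
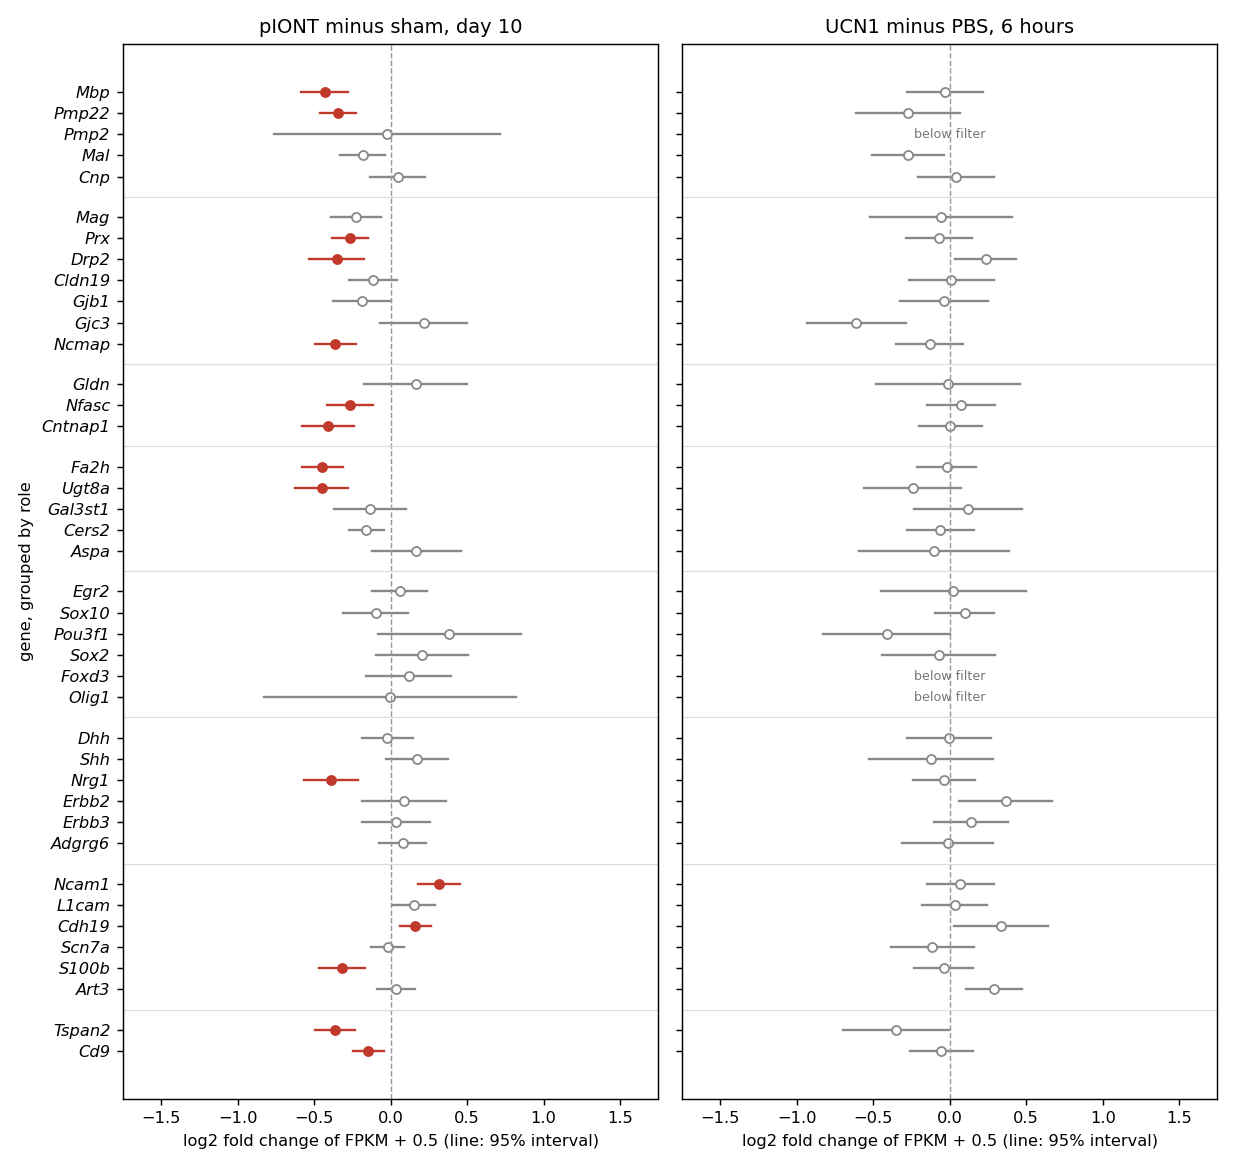
Log2 fold change of FPKM + 0.5 (horizontal axis) with its 95% interval for all 40 genes, grouped by role from compact myelin at the top to tetraspanins at the bottom; left is pIONT minus sham, right is UCN1 minus PBS, filled red points passed an adjusted p of 0.05 and open grey points did not. The 13 filled points to the left of 0 lie between -0.45 and -0.15, and the right panel has no filled point.

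Over all 40 genes the median log2 fold change after pIONT was -0.06, against -0.02 over all genes tested. Of the 40 values 24 were below 0, against 8068 of 14672 over all genes tested. In 17 of the 40 genes every pIONT library was below every sham library, a pattern of 24.7% of all genes tested, and in 3 genes every pIONT library was above, a pattern of 18.7%. Mbp, Ncmap, Fa2h, Ugt8a, Nrg1, Cntnap1 and Tspan2 kept their calls under all 16 alternatives. Nfasc lost its call in 5, among them each that left out a sham library, Drp2 in 3, among them without sham 1 and without sham 2, and S100b in 3, among them without sham 3. Pmp22, Prx and Ncam1 lost it in 1 each. Of the members not called, Mag and Cldn19 passed without pIONT 2, with limma adjusted p as low as 0.0171 and 0.0433 over their alternatives, and Mal, Cers2 and Shh passed without sham 2, with values as low as 0.0395, 0.033 and 0.0491. Mag and Cers2 also passed with TPM, array weights, a filter of 2 FPKM and voom, and Mal with TPM. Gene models of GENCODE vM21 overlap parts of some members. Among the called members, exons of Cd9, Prx, Ncam1, Nrg1, Cntnap1 and Tspan2 overlap genes on the opposite strand by 10.7%, 5.4%, 4.8%, 4.7%, 4.0% and 1.9% of their bases. Shh and Dhh overlap such genes by 28.3% and 25.2%. Dhh and Pmp2 overlap a gene on their own strand by 12.4% and 86.9%, and the part of this in their values was not tested. Without strand, reads of a gene and its opposite-strand partner cannot be told apart.

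Sham 1 stood apart in oligodendrocyte and pituitary genes, and pIONT 2 in macrophage and fibroblast genes. Mog, a gene of oligodendrocyte myelin, was at 2.68 FPKM in sham 1 and 0.0817 to 0.201 in the other 5 libraries. The summed level of 10 oligodendrocyte genes was 22.6 FPKM in sham 1, 5.63 and 6.65 in sham 2 and 3, and 10.4 to 14.2 in pIONT, where Tmem88b alone gave 4.72 to 8.50 FPKM. Of that list Klk6 was at 0 in sham 2, sham 3 and pIONT 1, and Opalin was at 0.0664 FPKM or less in every library. The summed level of pituitary genes was 765 FPKM in sham 1 against 80.7 to 255 in the others. Of 8 macrophage genes 7 rose, against 10.5% of all genes tested. The summed level of the 8 was 76.1 to 157 FPKM in sham and 201 to 391 in pIONT, the highest in pIONT 2. Schwann cell markers were abundant throughout, Pmp22, Mbp, Prx and Sox10 among them at the levels given above. All 10 markers of sensory neurons were present, and 6 of them fell and 1 rose, against 12.3% and 10.5% of all genes tested. Nefh, Nefm and Nefl (neurofilaments) were among those that fell, with log2 fold changes of -0.43, -0.34 and -0.28. The part of these neuronal and macrophage levels in the values of the members, Nrg1, Cntnap1 and Nfasc among them, was not tested.

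Members were grouped into 14 listed as shared with oligodendrocytes, 10 listed as peripheral myelin only and 16 in neither list. Gjc3, also a gene of oligodendrocyte membranes, was among the 16, so the lists are incomplete. Of the 14 listed as shared 5 fell, and of the 10 listed as peripheral 4 fell. Without sham 1, these counts were 4 and 3, and 10 of 39 members tested fell (25.6%, against 7.1% of all genes tested in that fit). Mbp then had a log2 fold change of -0.38 (limma adjusted p = 0.021) and Pmp22 of -0.34 (limma adjusted p = 0.0216), while Cd9, Drp2 and Nfasc did not pass. Without pIONT 2, 14 of 39 members tested fell (35.9%, against 8.24% of all genes). Without both libraries, a choice made after their marker levels were seen, 9 of 39 fell (23.1%, against 5.19% of all genes), Mag now among them, and 0 rose. Of the members listed as shared with oligodendrocytes 5 then fell, and of those listed as peripheral myelin only 2. Mbp had a log2 fold change of -0.36 (limma adjusted p = 0.033). The called members that did not pass there were Cd9, Drp2, Nfasc, Prx, S100b, Ncam1 and Cdh19.

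**Figure D3:**
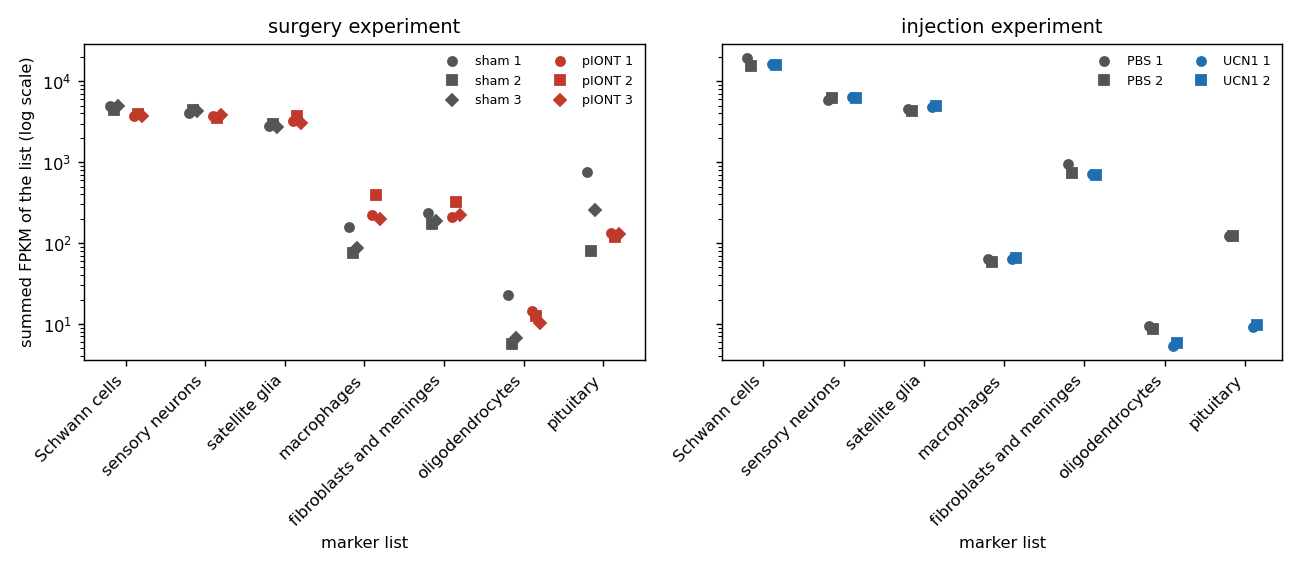
Summed FPKM of marker lists (vertical axis, log scale) in each library, 1 column per list; left is the surgery and right the injection experiment, and symbols tell the libraries of a group apart. Sham 1 is the highest of its experiment for oligodendrocyte (22.6 FPKM) and pituitary (765 FPKM) genes, pIONT 2 for macrophage (391 FPKM) and fibroblast (320 FPKM) genes, and both UCN1 libraries are below both PBS libraries for pituitary genes.

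Other genes of peripheral myelin and of the axon-glia contact were taken from a list of 43, of which 41 were matched by symbol and tested. Of these 6 fell (14.6%, against 12.3% of all genes tested) and 1 rose (against 10.5% of all genes tested). The share that fell was thus close to that of all genes, and the median log2 fold change was -0.04 against -0.02 over all genes. Itgb1, the beta chain of laminin receptors, went from 84.9 to 89.6 FPKM in sham up to 118 to 142 in pIONT (log2 fold change 0.55, limma adjusted p = 0.00359). Cntn1 (contactin 1), the axonal partner of Cntnap1 at the paranode, was at 60.95 to 63.64 FPKM in sham and fell to 41.48 to 51.37 in pIONT (log2 fold change -0.42, limma adjusted p = 0.00974). Cntnap2 (Caspr2), of the juxtaparanode, and Epb41l3 (protein 4.1B), which binds both Caspr proteins, fell by 0.36 and 0.33 on the log2 scale. The partners of Egr2, Nab1 and Nab2, and the laminin receptor Dag1 did not pass, with log2 fold changes of 0.14, -0.12 and -0.01 (limma adjusted p = 0.0655, 0.371 and 0.887). These 3 genes were picked with their values known.

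In a list of 16 genes of repair Schwann cells, 11 were tested, 5 rose and 0 fell. Of all genes tested 10.5% rose and 12.3% fell. The median log2 fold change was 0.19, against -0.02 over all genes. Gap43, a growth protein, rose by 1.98, Jun, the transcription factor that drives the repair state, by 0.96, Mcam by 0.36 and Bdnf, a neurotrophin, by 0.32 on the log2 scale. Jun, Gap43 and Bdnf are also made by sensory neurons. Ngfr (the p75 neurotrophin receptor), picked with its values known, was at 160 to 185 FPKM in sham and 142 to 151 in pIONT and did not pass (log2 fold change -0.20, limma adjusted p = 0.0575). Gdnf, Artn, Lif, Btc and Aqp5 were below the filter, with Gdnf at 0.0596 to 0.205 FPKM.

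The injection experiment asked what UCN1 changed in the ganglion at 6 hours. With limma 0 of the 37 genes tested passed, against 0.601% of all 16139 genes (0.304% higher and 0.297% lower), and 7 had an unadjusted p under 0.05, a level reached by 13.1% of all genes. The median log2 fold change was -0.03, against -0.01 over all genes. In 4 of the 37 genes both UCN1 libraries were below both PBS libraries and in 7 above, patterns of 23.7% and 21.8% of all genes tested (45.5% in either direction). Gjc3 was the only one of the 37 that passed in any of the 13 alternatives, among them voom on reads recovered from the FPKM.

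Gjc3, the connexin 29 gene of Schwann cell and oligodendrocyte membranes, was at 68.2 and 55.8 FPKM in PBS and 45.2 and 35.7 in UCN1. Both UCN1 libraries were below both PBS libraries, and the log2 fold change was -0.61 (SE 0.14, limma adjusted p = 0.131). With voom the change was -0.61 with a limma adjusted p of 0.00638. Art3 was at 128 and 130 FPKM in PBS and 159 and 157 in UCN1 (log2 fold change 0.29, SE 0.08, limma adjusted p = 0.191). The other genes with an unadjusted p under 0.05 were Erbb2, Drp2 and Cdh19 with log2 fold changes of 0.36, 0.24 and 0.33, and Mal and Tspan2 with -0.27 and -0.35 (limma adjusted p = 0.304 to 0.377 for these 5).

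None of the 13 genes that fell after pIONT passed here (0 of 13 in limma, and 0 of 13 with voom). In simulated data, 2 against 2 libraries rarely recovered changes as small as those after pIONT, so this count does not show that the genes were unchanged. Mbp was at 4182 and 3506 FPKM in PBS and 3618 and 3884 in UCN1, with a log2 fold change of -0.03 and a 95% interval of -0.28 to 0.22. Pmp22 was at 5362 and 4326 FPKM in PBS and 4529 and 3499 in UCN1, with a log2 fold change of -0.27 and an interval of -0.61 to 0.06. Fa2h was at 178 and 167 FPKM in PBS and 164 and 176 in UCN1, with an interval of -0.21 to 0.17, and Ugt8a was at 113 and 88.0 FPKM in PBS and 92.4 and 77.1 in UCN1, with an interval of -0.56 to 0.08. In all 4 genes the libraries of the groups overlapped. Nrg1 and Cntnap1 had log2 fold changes of -0.04 and 0.00, with intervals of -0.24 to 0.16 and -0.20 to 0.21. Sox10 was at 136 and 133 FPKM in PBS and 138 and 150 in UCN1 (limma adjusted p = 0.661), and Egr2 at 2.69 and 3.49 and at 3.19 and 3.06 FPKM. PBS 1 was the highest library for Mbp, Pmp22, Prx, Ncmap, Mal and Mag. The difference between the effects of pIONT and UCN1 was not tested, because the tables were made separately.

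**Figure D4:**
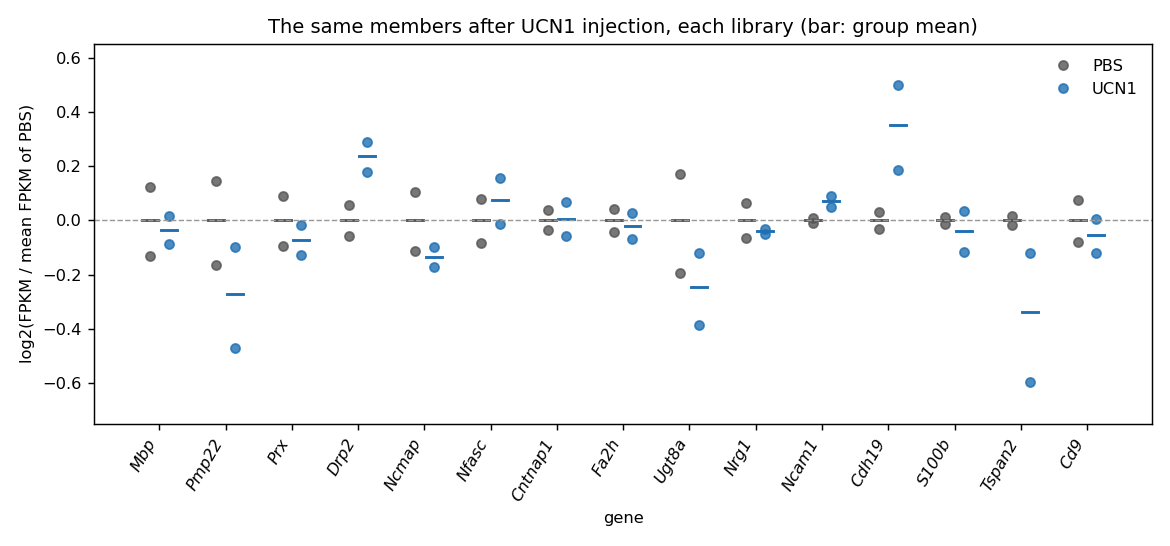
The 15 genes called after pIONT, shown in the injection experiment as the log2 ratio of each library's FPKM to the PBS mean (vertical axis), 1 column per gene; grey points are the 2 PBS and blue points the 2 UCN1 libraries, and bars are group means. The groups overlap in Mbp, Pmp22, Fa2h and Ugt8a, while both UCN1 libraries are above both PBS libraries in Drp2, Ncam1 and Cdh19 and below them in Tspan2.

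Pmp2, Foxd3 and Olig1 were below the filter in the injection experiment. Pmp2 and Foxd3 were listed at 0 in all 4 libraries, although Foxd3 was at 8.61 to 12.1 FPKM in the surgery experiment. In GENCODE vM21, whose coordinates the injection table follows, another gene model on the same strand covers 86.9% of the exon bases of Pmp2 and 3.8% of those of Foxd3. Whether this set the listed zeros was not tested. Olig1 rested on 2 to 10 reads per library. Of the lists above, 0 of 41 other myelin and axon-glia genes were called, with 5 at an unadjusted p under 0.05. Of 11 repair genes 1 was called higher, Gfap, an intermediate filament of activated glia. Gfap was at 2.63 and 1.35 FPKM in PBS and 6.81 and 7.39 FPKM in UCN1 (log2 fold change 1.66, limma adjusted p = 0.0462). Of all genes tested 0.304% were called higher. In simulated data 2 against 2 libraries gave more false calls than the nominal rate, so this narrow call is uncertain. The summed level of pituitary genes was 123 and 124 FPKM in PBS and 9.14 and 9.61 in UCN1, and that of fibroblast and meningeal genes was 963 and 743 in PBS and 709 and 687 in UCN1. Of these 8 fibroblast and meningeal genes 3 were called lower and 0 higher, while 0.297% of all genes tested were called lower. The 3 were Mfap4, Fmod and Slc47a1, with log2 fold changes of -4.7, -4.0 and -3.2 (limma adjusted p = 8.41e-06, 0.00864 and 0.00612). The summed level of oligodendrocyte genes was 9.42 and 8.72 FPKM in PBS and 5.35 and 5.82 in UCN1, with Olig2 and Klk6 at 0 in all 4 libraries. The part of these tissues in the value of Gjc3 was not tested.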

How the data were processed

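Both tables were deposited by the authors in FPKM. STAR, HTSeq, DESeq2 and the build GRCm39 are named, without versions or roles, per the submitters' processing notes. Per the labels' protocols, TRIzol RNA and a NEBNext Ultra II kit were used. Strandedness was not given in the sources used here. Injection-table coordinates equalled GENCODE vM21 (GRCm38) for 99.42% of shared identifiers and surgery-table coordinates for 1.99%. Symbols came from that annotation.

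Low FPKM values were whole reads (within 0.1, up to 20 reads) for 92.6% to 93.1% of values using the union of exons in the surgery table and 98.8% to 99.0% using mean transcript length in the injection table. This gave depths of 24.2 to 29.7 M and 15.7 to 17.1 M reads. Genes with a mean of at least 0.5 FPKM were tested within each table with limma 3.58.1 (R 4.3.3) on log2(FPKM + 0.5), with a trend and Benjamini-Hochberg adjustment. Fold changes are on that scale, which understates low genes. The test was tested on simulated data with a fixed dispersion of 0.02, where 2 against 2 libraries gave more false calls than the nominal rate. Libraries of a group differed beyond sampling noise (chi-square per degree of freedom at least 6). The 40 members, the lists and the rule for named genes (members called in either comparison with every library's value, the others by role, up to 4 called genes per other list) were chosen with earlier results of these data known. Alternatives were other pseudocounts, filters, scalings, weights, voom, a replicate block and leaving out libraries. No set test was run.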

Additional observations from a re-analysis of the deposited data

How the results depend on the processing

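The count of members that fell after pIONT was 13, between 9 and 16 under the alternatives, and no called member changed direction in any of them. Among the 25 members not called after pIONT, 9 changed sign in at least 1 alternative, and among the 37 tested after UCN1, 23 did. The count of members that rose after pIONT, 2, was 1 with TPM and with the replicate block, 1 to 3 when single libraries were left out, and 0 without sham 1 and pIONT 2. Over all genes, 1537 rose and 1807 fell after pIONT. Leaving out single libraries gave 922 to 1389 and 767 to 1580, and leaving out sham 1 and pIONT 2 gave 898 and 758. The share of calls that were higher was 46.0%, 36.7% with TPM and 54.5% after median-of-ratios scaling, where 16 and 12 members fell. After UCN1, 49 rose and 48 fell. The counts were 84 higher with a filter of 2 FPKM, 0 and 2 with no filter, 167 and 191 with voom, and 0 to 19 and 4 to 19 when single libraries were left out. Leaving out 1 library there assumes that a lone sample varies like the other group. The causes were not tested.

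With the replicate block, 1032 genes fell after pIONT, and 124 rose and 136 fell after UCN1. After pIONT 11 members then fell, without Cd9 and Nfasc, and after UCN1 the count of members lower was 1, as with voom (Gjc3 in both). Deviations of same-numbered libraries from their group means correlated at -0.06, -0.20 and 0.07 in the surgery experiment. Both pairs of the injection experiment gave 0.04, which had to be equal, because the deviations of 2 libraries from their mean mirror each other. With so few libraries these values cannot tell whether same-numbered libraries were paired by design. Depth limits Olig1 and Pmp2, with fewer than 100 reads per library, and Egr2 in the injection experiment, with 66 to 93 reads per library.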
